A study of Drosophila melanogaster with 19 samples.

Results

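The gut transcriptomes of flies overexpressing 2 related POU transcription factors, nub-RB and Pdm2-RB, were set directly against each other. The comparison used 6 of the 19 arrays of the series, chosen by their titles: the 3 arrays of nubRB gut and the 3 arrays of Pdm2RB gut, with no control array in the test. The genotypes are given in the labels as w; c564-Gal4>UAS-nubRB and w; c564-Gal4>UAS-Pdm2RB, called c564>nub-RB and c564>Pdm2-RB below. The 3 w1118 gut arrays, of flies with the driver and no UAS transgene (c564>+ below, although their labels spell the driver c546), served as a description of the level without either factor. All groups carry the driver, which is active in fat body and midgut and not in the gut alone. All flies were females of 10 days from mixed-sex populations, and "rest" means what remained once gut and head were removed. By the methods, flies grew up at 18 °C, lived as adults at 25 °C and were sampled as independent pools of 25 tissues per replicate, which is stated for c564>nub-RB and the control. For c564>Pdm2-RB the labels say only that the arrays are separate samples, so the p-values measure the spread between these samples. The c564>nub-RB replicates are 1, 3a and 4, the c564>Pdm2-RB replicates are 1, 2 and 4 and the c564>+ replicates are 1, 3 and 4, and signals of single arrays are given in that order.

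POU proteins bind octamer-like DNA motifs through a POU-specific domain joined to a homeodomain. In Drosophila, nub (also called pdm1) and pdm2 are neighbouring paralogs that share roles in the embryonic nervous system, and nub is expressed in the enterocytes of the adult midgut, where its short isoform is known as a repressor of antimicrobial peptide genes. The transgene nub-RB encodes the long isoform, which the authors of the study describe as an activator of immune genes. Antimicrobial peptides are secreted by fat body and gut epithelium under control of the IMD and Toll pathways. The gut also makes its digestive enzymes, mostly serine proteases of the Jonah and trypsin families, in enterocytes.

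Each array had 1 color, Cy3, and its signal is a normalized linear intensity per probe. On the 6 arrays, 72.3% to 83.8% of probes were well above background, no spot was saturated, and the number of arrays limits the precision. Testing was limited to probes whose mean signal exceeded 130 in either group, which held for 16540 of 32162 probes. A gene name could be given to 1405 probes, and 772 of these were tested. Most names come from the study's lists of genes that differ between c564>nub-RB and c564>+, so the named genes are a selected set that was chosen partly on the same c564>nub-RB arrays. Levels of single probes are compared between arrays only, never between probes.

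The arrays of 1 genotype differed strongly from each other in some genes, among them genes active in the ovary. The genes named here were picked after their values had been seen, except dec-1, which stood on the ovary marker list. The signal of dec-1, which encodes an eggshell protein, was 11.7, 4070 and 6860 in c564>nub-RB and 7700, 8350 and 9.47 in c564>Pdm2-RB. The eggshell gene yellow-g2 had signals of 6.92, 3760 and 2990 in c564>nub-RB and 11200, 11400 and 8.57 in c564>Pdm2-RB. Both genes were thus low on 1 array of each genotype and high on the others, and ndl, a protease gene of dorsoventral patterning that is active in the ovary, followed the same arrays. Tom, a Bearded-family gene, gave 2390, 833 and 2.72 in c564>nub-RB against 7960, 1640 and 16500 in c564>Pdm2-RB, and sala, BobA, CG13427 and CG10035 likewise had their lowest signal of the 6 arrays on c564>nub-RB replicate 4, at 4.78, 25.3, 5.99 and 5.7. That array was not well above background for 4 of these 5 genes, and BobA was. All 5 had a lower mean in c564>nub-RB, with log2 differences from -5.09 to -3.45, and only for BobA did the groups not overlap. BobA gave 1100, 665 and 25.3 in c564>nub-RB, 6240, 1970 and 14900 in c564>Pdm2-RB and 10100, 13200 and 23100 in c564>+. Tom was at 10400, 13600 and 25800 in c564>+ gut. In rest, Tom ran from 8.58 to 45.2 in c564>nub-RB and from 10.5 to 264 in c564>Pdm2-RB. Limma called neither these 5 genes nor dec-1, yellow-g2 and ndl between the genotypes. A t-test with 1 standard deviation pooled over all tested probes called Tom, sala, BobA, CG13427 and CG10035. It leaves out the spread of each gene between arrays, and the methods do not say whether the standard deviation was pooled. With the spread of each probe, the t-test called none of these 5 genes. The other markers varied less. Among hemocyte markers, 6 of 9 could be named, and their summed signal ran from 4469 to 9425 in c564>nub-RB and from 6064 to 14675 in c564>Pdm2-RB. Of the 8 fat body markers only Lsp2 was named, with signals from 7.22 to 110 and from 13.1 to 228. The 2 of 6 enterocyte markers that could be named, nub and alphaTry, had sums from 322065 to 340678 in c564>nub-RB and from 229791 to 261853 in c564>Pdm2-RB. These sums are mostly the signal of alphaTry. The 2 genes went opposite ways, alphaTry higher and nub lower in c564>nub-RB, and neither was called. The muscle marker Act88F had signals of 51 or less on every gut array. Enteroendocrine, stem cell and neuronal markers were not analysed here. In such bulk tissue, a change in RNA per cell and a change in the number of cells cannot be told apart.

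**Figure D1:**
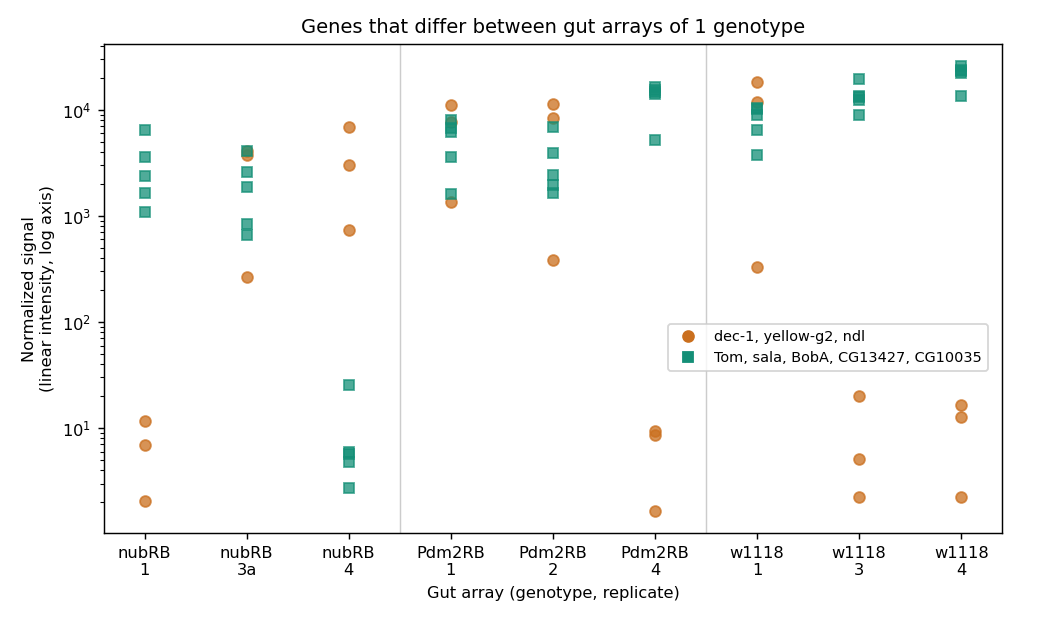
Normalized signal (log axis) of 8 genes on each of the 9 gut arrays, grouped by genotype and replicate (nubRB is c564>nub-RB, Pdm2RB is c564>Pdm2-RB, w1118 is c564>+); circles are dec-1, yellow-g2 and ndl, squares are Tom, sala, BobA, CG13427 and CG10035. The circles are low on 1 array of each overexpressing genotype, nubRB 1 and Pdm2RB 4, and among those 6 arrays the squares are lowest on nubRB 4.

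Between the 2 genotypes, 56 probes were called at a false discovery rate of 1% (limma, Benjamini-Hochberg over the 16540 probes), 0.339% of those tested. Of these, 29 were higher in c564>nub-RB (0.175%) and 27 were lower (0.163%). The differences were large, at least 2-fold in all 56 and at least 4-fold in 42, and 16 reached 16-fold, of which 11 were lower and 5 higher in c564>nub-RB. The median log2 difference was 2.53 among the higher and -3.22 among the lower probes. In 34 of the 56, the mean signal of the lower group was under 130. Without any threshold on the adjusted p, 2098 probes had an unadjusted p under 0.05, and at a false discovery rate of 5% limma called 136. The number called depended on every array. Leaving out 1 array at a time left 7 (without c564>Pdm2-RB replicate 1), 7 (without replicate 2), 16 (without replicate 4), 27 (without c564>nub-RB replicate 1), 9 (without replicate 3a) and 10 (without replicate 4). Among the named genes, Obp46a, mthl8 and AspRS were called whichever array was left out. Idgf5, Cyp6a2, CG8204, CG30456, CG18327 and Arpc3B were called in none of these fits, so their calls need all 6 arrays. The 3 c564>nub-RB arrays and 1 c564>Pdm2-RB array were scanned on 1 date and the other 2 c564>Pdm2-RB arrays on another. Within the shared date, 3 arrays against 1, the differences were 0.873 to 1.14 times their size, with no test, and their sign was fixed beforehand because the groups of the 56 probes do not overlap. With scan date as a block, 8 of the 56 stayed called. With arrays of high and low dec-1 as a block, 36 of the 56 were called.

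**Figure D2:**
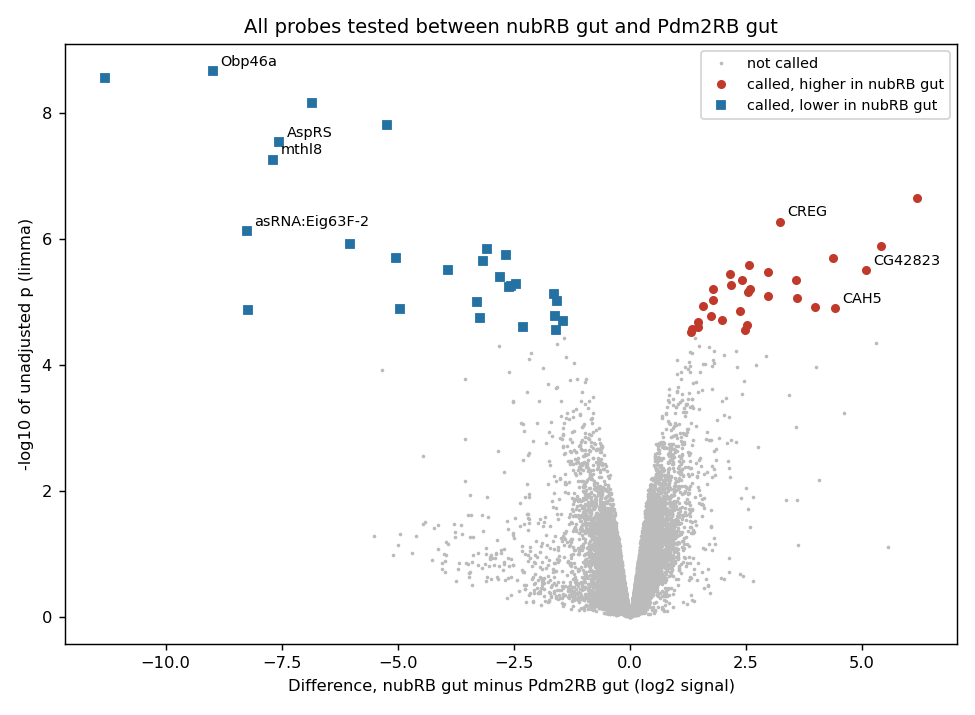
Each point is 1 of 16540 probes, with the log2 difference between nubRB gut and Pdm2RB gut on the x axis and -log10 of the unadjusted p from limma on the y axis. The 29 probes called higher and the 27 called lower in nubRB gut all lie more than 2-fold from 0, and the lower ones reach the larger differences.

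Among the genes lower in c564>nub-RB was Obp46a, a member of the odorant-binding protein family. Its signal was 4.92, 4.89 and 4.03 in c564>nub-RB and 2440, 2040 and 2540 in c564>Pdm2-RB. The groups lay far apart, and no c564>nub-RB array was well above background, so the difference is a lower bound. Set against the lowest signal well above background on those arrays, with means of log2 signals, Obp46a was at least 376-fold lower in c564>nub-RB (fitted log2 difference -8.98, standard error 0.15, adjusted p = 2.27e-05 from limma). The c564>+ arrays did not share 1 level, at 1.67, 1050 and 682.

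Another was mthl8, which encodes a G protein-coupled receptor of the Methuselah-like family. It gave 2.08, 2.14 and 3.18 in c564>nub-RB, not well above background on any array, against 447, 455 and 602 in c564>Pdm2-RB, a decrease of at least 80.2-fold (adjusted p = 0.000151). The c564>+ arrays, at 353, 519 and 563, lay at the level of c564>Pdm2-RB. Most names come from lists of genes that differ between c564>nub-RB and c564>+, so such a position is partly given by the naming. For asRNA:Eig63F-2, annotated as antisense to an ecdysone-induced gene, signals were 1.48, 1.47 and 2.12 in c564>nub-RB and 654, 675 and 289 in c564>Pdm2-RB, a decrease of at least 81.4-fold (adjusted p = 0.00138). Here the c564>+ arrays lay between the genotypes, at 50.8, 72.9 and 14.8.

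AspRS encodes the aspartyl-tRNA synthetase that charges tRNA for protein synthesis. Its probe read 33.9, 43.4 and 47.3 in c564>nub-RB and 8570, 8530 and 6320 in c564>Pdm2-RB (log2 difference -7.55, standard error 0.20, adjusted p = 9.7e-05). The c564>+ arrays were again at the c564>Pdm2-RB level, at 7100, 6450 and 5490. Idgf5, of the chitinase-like imaginal disc growth factors, followed the same pattern with 29.9, 22.3 and 47.6 in c564>nub-RB against 1180, 1200 and 654 in c564>Pdm2-RB (log2 difference -4.94, standard error 0.37, adjusted p = 0.00518).

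For several called genes the probes gave different values. Of the 16 named genes called, 5 are read by more than 1 named probe, and in all 5 another probe was not called. CG8768 has 3 probes. The first of them read 9.06, 29.2 and 5.16 in c564>nub-RB against 3120, 3390 and 3460 in c564>Pdm2-RB, and the second 32.6, 39.2 and 18.5 against 1660, 2050 and 1940. These 2 were called at log2 differences of -8.23 and -6.03, while the third, with 608, 453 and 421 against 854, 992 and 1180, differed by -1.04 (adjusted p = 0.118). All 3 were lower in c564>nub-RB and the groups did not overlap, but the size depended on the probe. The first probe was well above background on 2 of the 3 c564>nub-RB arrays, so its difference has no exact size. RpS23, a protein of the small ribosomal subunit, was called by 1 of its probes, with 35.6, 66.3 and 60.5 in c564>nub-RB and 481, 513 and 466 in c564>Pdm2-RB (log2 difference -3.22, adjusted p = 0.00642). Its other probe read 245000, 292000 and 275000 against 274000, 269000 and 274000 and differed by -0.01 (adjusted p = 0.981). The call therefore belongs to 1 probe and not to the gene as a whole. Srg3 was called at -5.04 by a probe with 854, 610 and 691 in c564>nub-RB and 25300, 30800 and 16300 in c564>Pdm2-RB, whereas its other probe read 119000, 110000 and 121000 against 74000, 62500 and 95300, a log2 difference of 0.61 in the other direction (adjusted p = 0.281). CG18327 was called at -2.56 by 1 probe, with 938, 670 and 872 in c564>nub-RB, 4440, 5070 and 4980 in c564>Pdm2-RB and 12700, 11800 and 12800 in c564>+, and the other probe gave -0.40 (adjusted p = 0.315). Among the higher genes the same held for Arpc3B, a subunit of the actin-nucleating Arp2/3 complex, at 1.33 for the called probe and 0.04 for the other (adjusted p = 0.939).

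**Figure D3:**
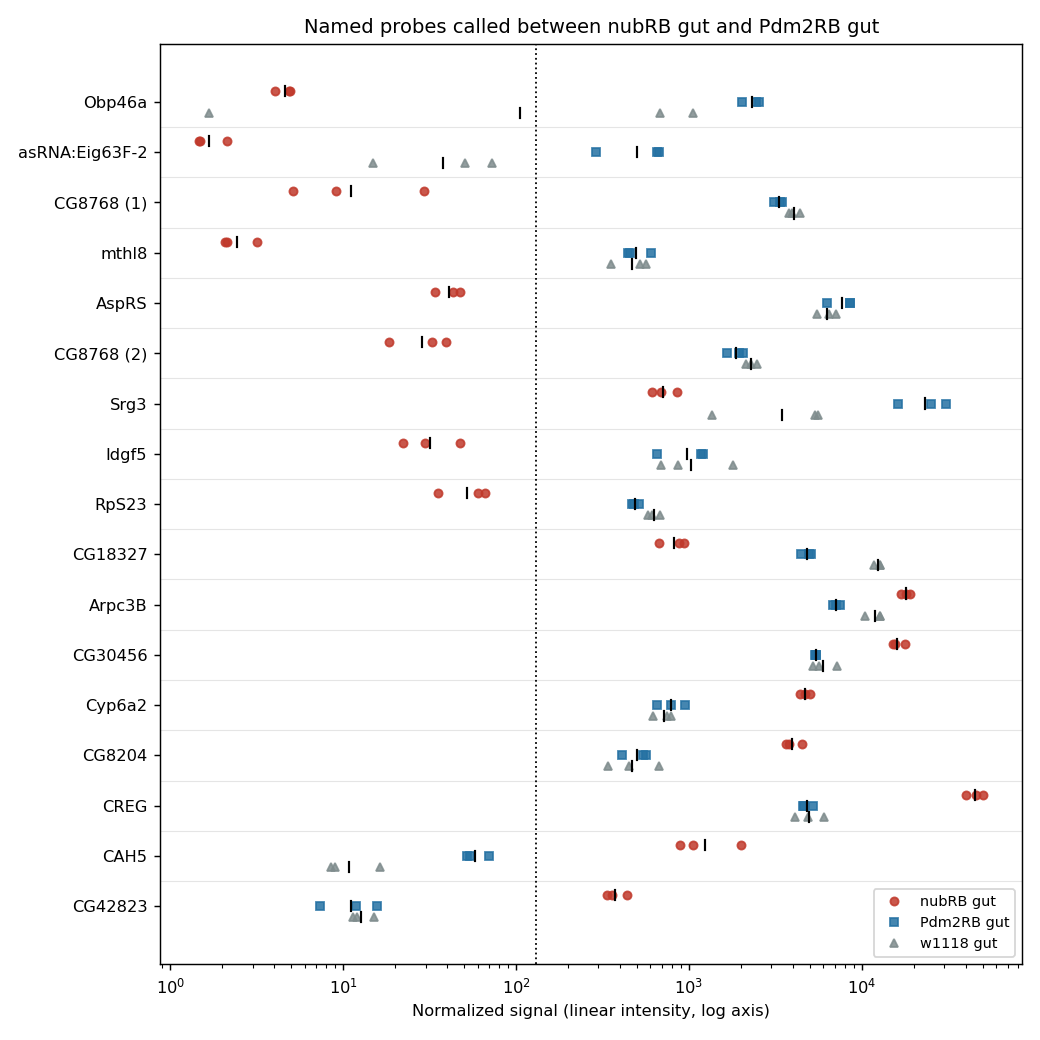
Normalized signal (log axis) of the 17 called probes that carry a gene name, on the 3 nubRB gut, 3 Pdm2RB gut and 3 w1118 gut arrays (c564>nub-RB, c564>Pdm2-RB and c564>+); black ticks are means of the log2 signals, the dotted line is the signal of 130 used for testing, and (1) and (2) mark the 2 called probes of CG8768. The red circles lie to the left of the blue squares in the upper 10 rows and to the right of them in the lower 7, with no overlap.

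The highest difference among the named genes called was that of CG42823, with 336, 361 and 436 in c564>nub-RB against 15.6, 11.9 and 7.34 in c564>Pdm2-RB (log2 difference 5.08, standard error 0.30, adjusted p = 0.00274). CAH5, a carbonic anhydrase gene, read 2000, 892 and 1060 against 69.8, 51.8 and 54 (log2 difference 4.41, standard error 0.33, adjusted p = 0.00518). In c564>+ neither gene came near the c564>nub-RB level, and CAH5, at 16.4, 8.47 and 9.02, was not well above background on any control array. CREG is the fly homolog of a human secreted glycoprotein named as a cellular repressor of E1A-stimulated genes. Its signals were 39900, 45600 and 50500 in c564>nub-RB and 4580, 5240 and 4620 in c564>Pdm2-RB, and the c564>+ arrays gave 4100, 6060 and 4870. CREG was thus 9.4-fold higher in c564>nub-RB than in c564>Pdm2-RB (log2 difference 3.23, standard error 0.14, adjusted p = 0.0011). Cyp6a2, a cytochrome P450 gene linked to insecticide resistance, read 4720, 5040 and 4390 against 785, 653 and 950 (log2 difference 2.58, adjusted p = 0.0035), with 790, 746 and 617 in c564>+. CG8204 and CG30456 were higher by 2.98 and 1.57 on the log2 scale, also with c564>+ at the c564>Pdm2-RB level. For these named genes too, a distance between c564>nub-RB and c564>+ is partly given by the naming.

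Beyond the named genes called, the rule for naming took the next 5 higher and 2 lower named probes. CG12934 had the largest difference of these, with 18600, 13200 and 15600 in c564>nub-RB against 245, 302 and 867 in c564>Pdm2-RB. The groups were wide apart, but the difference missed the threshold (log2 difference 5.29, standard error 0.49, adjusted p = 0.0125). Ance-3, related to angiotensin-converting enzymes, and CG33332, CG15414 and CG17739 had log2 differences of 1.5, 1.71, 1.81 and 2.31 (adjusted p from 0.0136 to 0.021). On the other side were CG42673 at -2.21 and Top1, the DNA topoisomerase I gene, at -2.51 (adjusted p = 0.0396 and 0.0481).

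The remaining 39 called probes carry no gene name. The extreme one was A_09_P143788, with 6.49, 4.98 and 7.74 in c564>nub-RB and 17400, 16100 and 14200 in c564>Pdm2-RB. It was well above background on 1 of the 3 c564>nub-RB arrays, and c564>+ was equally low, at 7.55, 7.72 and 5.3 (log2 difference -11.30, standard error 0.20, adjusted p = 2.27e-05). This probe was therefore bright in c564>Pdm2-RB only. The next 2 probes and A_09_P152205 below were picked after their values had been seen. A_09_P032116 was of the same kind, at 19.4, 22.6 and 22 in c564>nub-RB, 791, 755 and 852 in c564>Pdm2-RB and 13.4, 25.3 and 12.5 in c564>+. A_09_P112760 read 36.1, 30.2 and 32.5 against 4180, 3360 and 3860, and its c564>+ signals of 13.2, 1860 and 1100 were low on the same control array as those of Obp46a. On the other side, A_09_P187420 read 661, 484 and 398 in c564>nub-RB against 5.93, 8.06 and 6.96 in c564>Pdm2-RB, with 8.68, 6.2 and 6.23 in c564>+, so it was bright in c564>nub-RB only. A_09_P015716 and A_09_P055841 were the next, at log2 differences of 5.41 and 4.37, and in both c564>+ lay at the level of c564>nub-RB.

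The control arrays thus did not side with 1 genotype throughout, and lay near c564>Pdm2-RB more often than near c564>nub-RB. Of the 56 probes, the mean of c564>+ lay within 1 log2 unit of c564>Pdm2-RB only in 29 (15 higher and 14 lower in c564>nub-RB), of c564>nub-RB only in 16 (11 higher and 5 lower), of both in 1 and of neither in 10. These are positions without a test. For the named genes they are partly given by the naming, which drew mostly on genes that differ between c564>nub-RB and c564>+. The genes that could be placed on the RefSeq annotation, 15 of the 16, were then assigned to chromosome arms. On 2R lay 8 of the 15 (53.3%), against 25.4% of the 583 named and placed genes tested, and none lay on 2L, against 20.6%. All 3 genes on 3L were lower and all 3 on 3R were higher in c564>nub-RB. Some lay close together in gene order, with 3 annotated genes between CREG and CG42823, 8 between CG18327 and RpS23 and 27 between CG8768 and AspRS, and each of these pairs changed in 1 direction. These are counts of few, selected genes with no test.

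The same genotypes were compared in rest, on 4 and 3 other arrays. No source used here says whether gut and rest of 1 number were taken from the same animals. There, 162 of 16363 probes were called (0.99%), 82 higher (0.501%) and 80 lower (0.489%) in c564>nub-RB. Of the 56 gut probes, 46 were tested in rest, all 46 differed in the same direction, and 32 were called, which is 57.1% of the gut calls and 19.8% of the rest calls. Over the 15100 probes tested in both tissues, 52.8% had the same sign. In rest the difference was -5.23 for A_09_P032116, which was well above background on 3 of 4 c564>nub-RB arrays there, and -7.40 for AspRS. It was also called for A_09_P143788, at 9.09 to 10.2 in c564>nub-RB and 32000 to 37800 in c564>Pdm2-RB, and for Obp46a, at 1.61 to 8.31 and 1050 to 1770. These 2 and A_09_P032116 were not well above background on every c564>nub-RB array, so the sizes of their differences in gut and rest are not compared. CREG differed by 2.86 in rest and CG8204 by 2.61, both called. Idgf5, at -2.27 (adjusted p = 0.0266), Cyp6a2, at 1.90 (adjusted p = 0.0156), and CAH5, at 1.0 (adjusted p = 0.0855), were not called there.

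**Figure D4:**
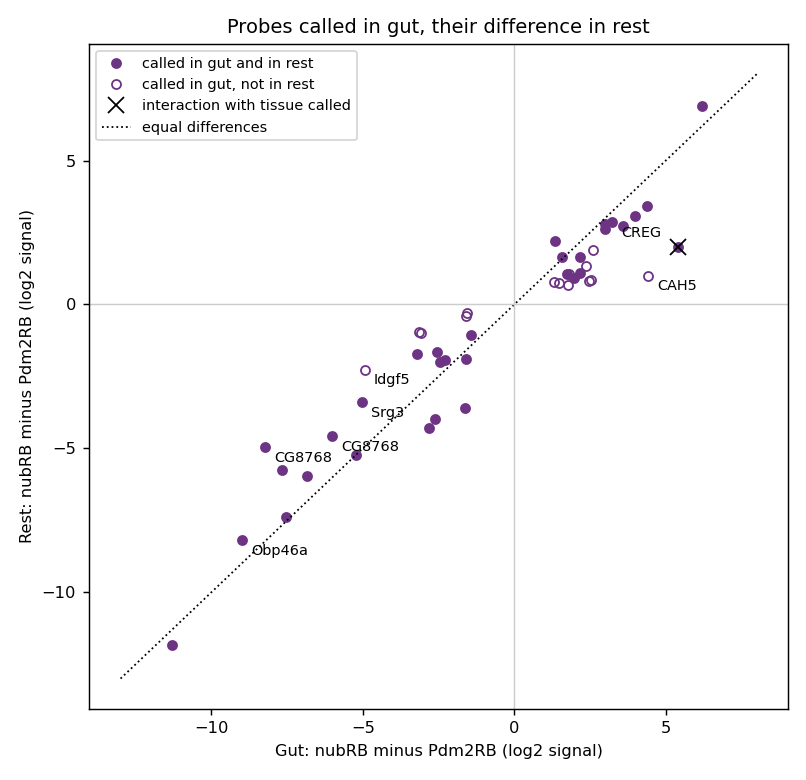
Log2 difference between nubRB and Pdm2RB in gut (x axis) and in rest (y axis) for the 46 of the 56 gut probes that were also tested in rest; filled circles were called in both, open circles in gut only, the cross marks a called interaction and the dotted line equal differences. All 46 points lie in the quadrants of equal sign, and a fitted difference has no exact size where a group was not well above background, as for Obp46a in nubRB gut.

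An interaction test asked whether the genotype difference itself differed between gut and rest. Of 17803 probes, 8 were called (0.0449%), and 3 of these were among the 56. For asRNA:Eig63F-2, the signal of c564>Pdm2-RB was 10.1 to 22.7 in rest and that of c564>nub-RB 1.45 to 1.62, and no c564>nub-RB array of either tissue was well above background. Its differences are thus lower bounds, at least 81.4-fold in gut and at least 1.46-fold in rest, and how far they differ is not determined. A_09_P152205 read 8.95, 7.13 and 12.1 against 118, 147 and 151 in gut, while both genotypes were at 1.62 to 3.54 in rest, not well above background on any array. No difference in rest could be measured for it, and hence no interaction. The third, A_09_P015716, was well above background on all arrays of both genotypes and differed in both tissues, more so in gut (interaction 3.42, adjusted p = 0.0064). Among the other called genes with a name, CAH5 had an interaction of 3.42 with an adjusted p of 0.0128. With scan date as a block, limma called no interaction, with 1036 probes at an unadjusted p under 0.05.

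No antimicrobial peptide gene was called by limma between the 2 genotypes. Of 13 genes on the list 12 were tested, and over all tested probes 0.339% were called. In none of the 12 did the 2 groups stand clear of each other, against 18.1% of all tested probes. The median log2 difference was -0.44, against 0.02 over all tested probes. Counts of so few genes do not show that the genotypes are equal. Dpt (DptA), a Diptericin, read 11300, 1730 and 3930 in c564>nub-RB and 44500, 9490 and 1870 in c564>Pdm2-RB, with 186, 384 and 244 in c564>+. Both genotypes were thus above every control array, while the arrays within a genotype differed by more than the genotypes did (log2 difference -1.12, 95% interval -4.25 to 2.02). CecC, a Cecropin, had the largest difference of the list, at -2.73 with an interval from -7.22 to 1.75. The t-test with a standard deviation pooled over all tested probes called CecC. CecA2 and CecA1 had differences of -1.60 and -0.70. The intervals were narrow for Drs, the Drosomycin gene, at -0.22 to 0.34, and Def, the Defensin gene, at -0.34 to 0.62. Among the Drosomycin-like genes, 3 of 6 were tested and none was called, the extremes being Drsl5 at -1.46 and Drsl1 at 0.58.

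The immune-induced peptides are small secreted peptides that appear in hemolymph after infection. Of 9 genes 7 were tested and none was called, against 0.339% of all tested probes. Of the 7, 6 had a positive difference, against 8889 of all 16540 tested probes. The median was 0.47 against 0.02, and in 4 the groups did not overlap, against 18.1% of all tested probes. IM4 is 1 of the Daisho peptides, which act against filamentous fungi. It gave 55700, 46400 and 59800 in c564>nub-RB and 29000, 29300 and 30900 in c564>Pdm2-RB. Its groups were clear of each other (log2 difference 0.85, 95% interval 0.52 to 1.19, adjusted p = 0.0755). IM10 gave 9990, 7820 and 8520 against 4480, 6110 and 4270 (0.84, adjusted p = 0.16). IM23 differed by 1.06, with overlapping groups (adjusted p = 0.432), and IM3 by 0.47 (adjusted p = 0.365). In rest IM4 differed by 1.31 (adjusted p = 0.0528).

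**Figure D5:**
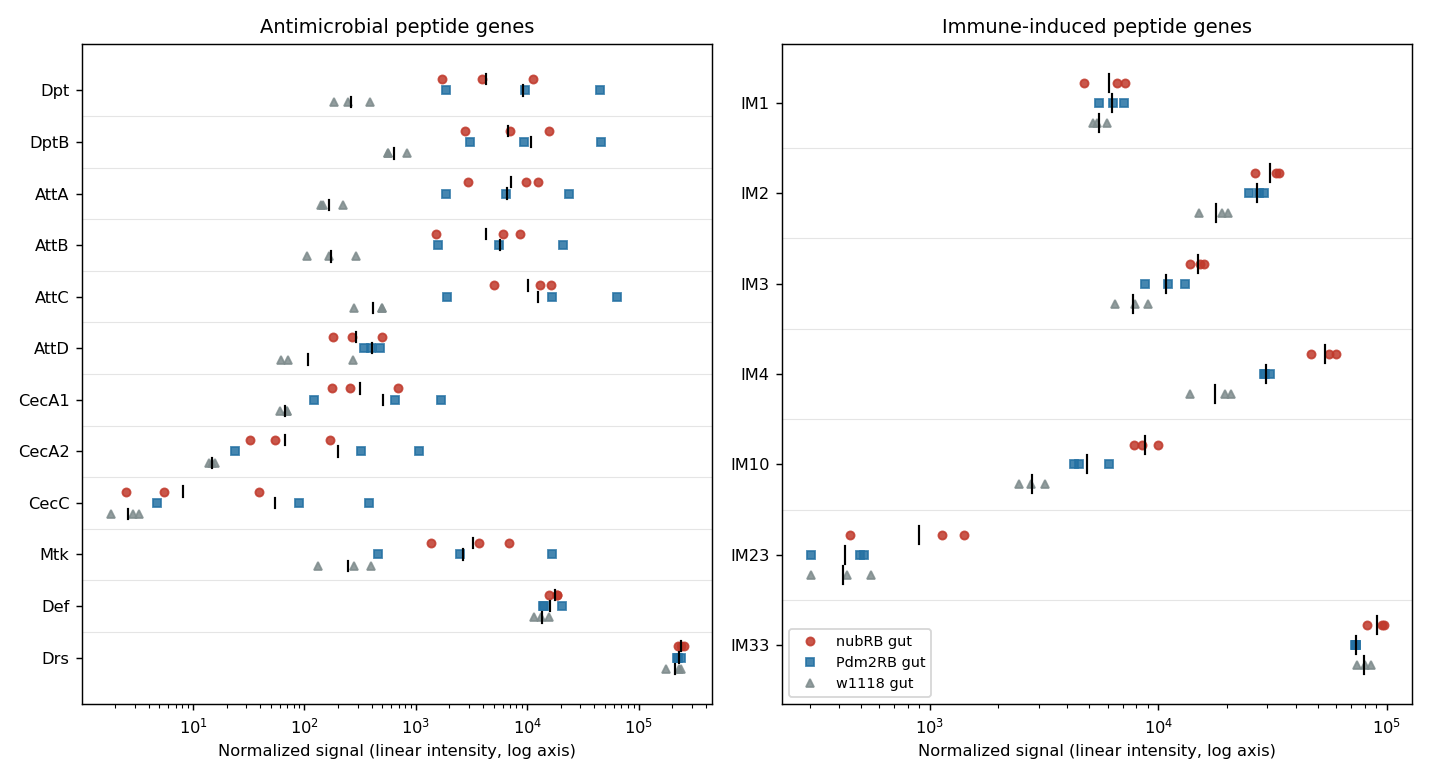
Normalized signal (log axis) of the tested antimicrobial peptide genes (left) and immune-induced peptide genes (right) on the 3 arrays each of nubRB gut, Pdm2RB gut and w1118 gut; black ticks are means of the log2 signals. On the left the red circles and blue squares overlap in all 12 genes, and on the right they are apart in 4 of 7.

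Over all gene lists, 66 of 194 genes were tested and limma called none, against 0.339% of all tested probes. An unadjusted p under 0.05 from limma was found for 8 of the 66, against 2098 of all 16540 probes. The median log2 difference was -0.03, against 0.02 over all tested probes. With so low a share called, no call among 66 genes does not set the lists apart. A t-test called none of the 66 with the spread of each probe. It called 2, CecC and LysP, with a standard deviation pooled over all tested probes. Of the peptidoglycan recognition genes 4 of 16 were tested, and the largest differences were -0.60 for PGRP-SD and -0.35 for PGRP-LF, whose product dampens IMD signalling. Of the digestive serine proteases 20 of 28 were tested, with a median of -0.02 and no call. The largest of these was Jon99Ci, at 158000, 110000 and 103000 in c564>nub-RB against 321000, 320000 and 195000 in c564>Pdm2-RB. Its groups did not overlap, but the difference missed the threshold (-1.16, 95% interval -1.84 to -0.49, adjusted p = 0.18). Jon66Ci differed by 1.04, Jon44E by -0.75 and alphaTry by 0.43, none of them called. The 3 maltase-like genes tested differed by no more than 0.22 in size. Among lysozymes, LysP had 310, 228 and 17.2 in c564>nub-RB and 2710, 1800 and 18.6 in c564>Pdm2-RB, and the groups overlapped through c564>Pdm2-RB replicate 4 alone. In the JAK/STAT list, Diedel differed by -1.47 and TotX, a stress-induced Turandot gene, by 1.17 (adjusted p = 0.427 and 0.246). The redox gene Irc, which encodes an immune-regulated catalase, differed by 0.19, also not called. Of the Toll pathway 2 of 13 genes were tested, of JNK and stress kinases 3 of 11, of epithelial renewal genes 2 of 12, and none was called. Genes of the IMD pathway and heat shock genes were not analysed here.

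Among the POU genes only nub could be named, and pdm2 was not analysed here. Of 5 nub probes, the one with the highest mean signal read 11100, 7580 and 8070 in c564>nub-RB and 9640, 9980 and 14200 in c564>Pdm2-RB, with overlapping groups (log2 difference -0.34, 95% interval -0.90 to 0.22, adjusted p = 0.589). None of the 4 nub probes tested was called. Where these probes lie in the transcript was not checked, so their signal is no measure of either transgene. Oat, which encodes ornithine aminotransferase, read 3630, 4630 and 6460 in c564>nub-RB, 7290, 11800 and 1720 in c564>Pdm2-RB and only 2.28, 3.02 and 2.44 in c564>+. The Su(P) probe showed the reverse, at 2.44 to 3.30 in c564>nub-RB and 2.92 to 3.96 in c564>Pdm2-RB against 5590, 5010 and 6010 in c564>+. Both genes set the overexpressing genotypes apart from the control. Between those genotypes Oat was not called (log2 difference -0.15, 95% interval -1.94 to 1.63). So wide an interval does not show that they are equal. Su(P) was not tested between them, because its mean signal did not exceed the minimum for testing in either genotype. No difference between them can be read from it.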

How the data were processed

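Female flies of 10 days were profiled on 1-color Drosophila arrays. According to the authors, spots were read with Agilent Feature Extraction 10.7.3.1 and the processed signals were quantile-normalized in Partek, and the deposited table holds linear intensity per probe for the 19 arrays. The deposited scanner files gave slides, scan dates and background marks. Their signals, quantile-normalized here, lay within 0.01 log2 units of the deposited values for 99.98% of entries.

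The intensities were log2-transformed and fitted with limma 3.58.1 in R 4.3.3, on the 6 compared arrays, for probes with a group mean above 130, at a Benjamini-Hochberg threshold of 1%. The methods give this threshold, and limma replaces their t-test. Rest was fitted on its own 7 arrays and the interaction on 13. Scripts were tested on simulated data. Names came from the study's supplementary annotation (its symbols only, matched on the probe ID) and RefSeq, and 1400 of 1405 named probes matched RefSeq, of which only names, arms and gene order were used, because its assembly differs from that of the arrays. No sequence is shown, since none was at hand.

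Named are nub and Oat, the 12 highest and 12 lowest named probes by the log2 difference among those called and then by the moderated statistic, the 5 highest and 5 lowest called probes, and up to 4 members of each list with the largest difference, by the brightest probe. Members and lists were chosen with earlier results of these data known. Alternatives were other scalings, filters, tests, blocks and arrays left out. Figures were drawn with matplotlib. The supplementary annotation also holds the authors' own fold changes, which were not used.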

Additional observations from a re-analysis of the deposited data

Results flagged for a closer look

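For 3 of the probes called in gut, a test of the interaction of genotype and tissue passed the threshold (limma, adjusted p under 0.01). The fitted interaction, gut minus rest, was -5.02 for asRNA:Eig63F-2, -4.24 for A_09_P152205 and 3.42 for A_09_P015716. The first 2 values rest on signals that were not well above background, in c564>nub-RB in both tissues for asRNA:Eig63F-2 and in both genotypes in rest for A_09_P152205, so they give no size and no difference between tissues can be read from them. A_09_P015716 was well above background on all arrays of both genotypes. No interaction was called with scan date as a block (1036 probes at an unadjusted p under 0.05).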

How the results depend on the processing

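Of the 56 calls between the genotypes, all kept their sign under every alternative that gave them a value, which non-overlapping groups fix for arrays left out. Among limma fits the count was 91 (53 higher in c564>nub-RB) with 9 gut arrays, 242 (134 and 108 lower) with 19 arrays, and 63 higher and 44 lower with 9 gut arrays and slide as a random block, an alternative chosen after seeing the data because that block could not be fitted on 6 arrays. It was 136 (82 and 54) at 5%. A t-test called 4 with the spread of each probe, 0 of them higher (1216 higher at an unadjusted p under 0.05). It called 277 (65 and 212) with a standard deviation pooled over all tested probes. Scan date as a block left 10 (1 and 9). Without a filter 18 were higher. With the dec-1 level as a covariate 36 were called, 14 of them higher, and with dec-1 above or below 130 as a block 18 were higher; both were chosen after seeing the data. Leaving out each array in turn gave 7 to 27 (1 to 8 higher, 6 to 19 lower); 7 probes were called each time and 32 never. With the replicate number as a block, which leaves 1 residual degree of freedom, limma called 0 (0 higher, 0 lower) and 512 had an unadjusted p under 0.05; the genotypes share only numbers 1 and 4, whose deviations correlated at -0.197 and -0.335, so the numbers were not taken as pairs. For the interaction, limma called 0 with scan date as a block (1036 at an unadjusted p under 0.05), 0 with the replicate number as a block (1193), 34 at 5%, and 0 to 16 when each of 13 arrays was left out, with 0 without c564>Pdm2-RB replicate 1 of gut or of rest, c564>nub-RB gut replicate 1 or c564>nub-RB rest replicate 2 or 4 (1336 to 4208 at an unadjusted p under 0.05). The other scalings, the filter on background, a 2-fold minimum and another variance prior stayed within 1.5 times the count, and no list member was called with these scalings or with 1 array left out. The causes were not tested. Precision is limited by 3 arrays a group, and a group not well above background gives only a lower bound.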
